A study of Homo sapiens with 9 samples.

Results

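Replication-dependent histone genes were taken as all gene models whose symbol begins with HIST1H, HIST2H, HIST3H or HIST4H, which gave 73 of the 26485 models counted. They were split by the class in the symbol into 6 genes of linker histone H1, 18 of H2A, 20 of H2B, 14 of H3 and 15 of H4. Among them, HIST2H2BA, HIST2H2BC and HIST1H2APS1 are listed by RefSeq as transcribed pseudogenes. The RNA came from wild-type (WT) HAP1 cells, a near-haploid adherent human cell line, and no sample was treated. Sorted cells were lysed and their RNA was isolated with NAxtra magnetic beads, DNase treated and turned into stranded SMART-Seq libraries. The 9 libraries were biological replicates, 3 of single cells (Single Cell Rep 1 to 3) and 2 each of 10, 100 and 1000 cells, all of the same line and genotype. The study asked how little starting material the isolation needs, so the comparisons here set the single cells against the larger inputs.

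Core histones H2A, H2B, H3 and H4 form the protein spool on which DNA is wound, and H1 binds the DNA that links neighbouring spools. Replication-dependent histone genes are transcribed mainly in S phase, when new DNA must be packed, and their activator NPAT sits at the gene clusters. Their mRNAs usually have no introns and end in a conserved stem-loop instead of a poly(A) tail. The stem-loop is bound by SLBP, the transcript is cut with the help of the U7 small nuclear RNA (RNU7-1), and the mRNA is degraded when replication ends. A library primed at random positions, as in the kit used, can hold such RNAs without a poly(A) tail.

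In the hg38 genome, 56 of the 73 genes lay on chromosome 6, 16 on chromosome 1 and 1, HIST4H4, on chromosome 12. Their models were 354 to 2223 bases long and 62 had a single exon. The stem-loop was searched in the GENCODE v29 transcripts (GRCh38) as a stem of 6 bases that begins with GG, pairs with itself and encloses a loop of 4 bases that begins with TT. It was found in the transcripts of 30 of the 73 histone genes, pseudogenes included, against 89 of 19598 other protein-coding genes (0.454%). The 4 forms found are shown because they are the feature that sets these mRNAs apart, with the paired stem in capitals and the loop in lower case.
Form of 17 genes, among them HIST3H2A, HIST3H2BB and HIST1H2BG: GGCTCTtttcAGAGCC
Form of 5 genes, among them HIST1H2BF and HIST1H3G: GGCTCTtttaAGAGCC
Form of 5 genes, all H4, among them HIST1H4B and HIST4H4: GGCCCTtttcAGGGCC
Form of 3 genes, all H4, among them HIST1H4I: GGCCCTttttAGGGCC
In HIST1H2BF the stem-loop lay at chr6:26199968-26199983 on the plus strand, inside its single exon and 5 bases before the end of the gene model. In HIST4H4 it lay at chr12:14770724-14770739 on the minus strand, 4 bases before the model's end. HIST1H2BD and HIST2H2BE held it 12746 and 1728 bases before the end of models that run on past it. Where none was found, these letters were not in the annotated transcript, which says nothing about the RNA itself.

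Promoters were placed for 59 of the 73 genes from the RefSeq table (GRCh38.p14), as 250 bases before to 50 bases after each start. The 6 genes whose models span both copies were not placed. Nor were genes without a listed start near that of their model, among them HIST1H2AH, HIST1H4A and HIST1H4C, so the class counts are partial. The 59 genes have 58 distinct windows because HIST1H3D and HIST1H2AD start at the same base. CCAAT, the box bound by NF-Y, was present on either strand in 51 of the 59 (86.4%) against 34.6% of all 35116 promoters. All 6 H1, 14 H2A, 18 H2B and 10 H3 promoters held it, and 3 of the 11 of H4 genes did (27.3%). TATAAA was present in 64.4% of histone promoters and 11.5% of all promoters. These letters were counted anywhere in the window and not only where a TATA box would lie. In HIST4H4 they are at the upstream end of the window. ATTTGCAT, the octamer bound by OCT1, was present in 11 of 14 H2A and 14 of 18 H2B promoters, in 1 of 10 H3 promoters (the window of HIST1H3D, counted also as that of HIST1H2AD) and in no H1 or H4 promoter, against 1.8% of all. Matches were counted for each motif on its own, also where they overlap another, and many H2A and H2B promoters are partly the same DNA, because 13 gene pairs on opposite strands start within 223 to 346 bases of each other. Promoters of 4 genes described below are printed on the gene's own strand, with these motifs, read on either strand, in capitals.
HIST1H2BF, chr6:26199266-26199565, plus strand, with 3 CCAAT boxes and 1 octamer: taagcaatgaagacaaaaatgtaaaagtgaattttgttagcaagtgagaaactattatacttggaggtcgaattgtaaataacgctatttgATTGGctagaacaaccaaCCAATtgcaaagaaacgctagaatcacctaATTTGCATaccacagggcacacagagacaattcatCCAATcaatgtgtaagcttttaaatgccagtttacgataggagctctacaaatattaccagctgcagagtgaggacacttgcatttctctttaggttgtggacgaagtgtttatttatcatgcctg
HIST3H2A, chr1:228457824-228458123, minus strand, shared with its neighbour HIST3H2BB, with 3 CCAAT boxes: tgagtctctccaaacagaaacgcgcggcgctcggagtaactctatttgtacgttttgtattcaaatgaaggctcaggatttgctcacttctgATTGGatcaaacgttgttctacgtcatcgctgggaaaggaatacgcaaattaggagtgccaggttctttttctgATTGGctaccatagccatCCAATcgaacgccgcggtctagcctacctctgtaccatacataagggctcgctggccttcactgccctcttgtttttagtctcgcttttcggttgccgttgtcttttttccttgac
HIST4H4, chr12:14771082-14771381, minus strand, with 1 TATAAA: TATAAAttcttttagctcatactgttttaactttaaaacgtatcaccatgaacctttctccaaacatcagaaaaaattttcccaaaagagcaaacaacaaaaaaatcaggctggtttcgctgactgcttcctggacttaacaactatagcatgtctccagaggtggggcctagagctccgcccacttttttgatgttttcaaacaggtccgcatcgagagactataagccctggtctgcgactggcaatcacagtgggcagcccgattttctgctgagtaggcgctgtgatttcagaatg
HIST1H4E, chr6:26204360-26204659, plus strand, with none of the 3: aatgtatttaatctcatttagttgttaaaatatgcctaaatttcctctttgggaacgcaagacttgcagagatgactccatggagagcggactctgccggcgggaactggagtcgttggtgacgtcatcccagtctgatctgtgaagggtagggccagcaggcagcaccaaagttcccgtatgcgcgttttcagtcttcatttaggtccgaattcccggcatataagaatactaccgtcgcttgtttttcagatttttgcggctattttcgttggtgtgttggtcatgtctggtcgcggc

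The libraries held 42842970 to 61645865 counted reads, and levels are given as CPM, each gene's counts scaled to a common library size with TMM factors. Beside the histone genes, summed CPM of HAP1 markers (ABL1, BCR, LIN28A, POU5F1 and SALL4) was 296 to 862 in the single cells and 465 to 585 in the 6 larger libraries. All 5 were measured, and LIN28A measured 0.0386 CPM for Single Cell Rep 1, 0.216 for Rep 2 and 45.3 for Rep 3. Markers of other cell types were not called in any comparison, but most were too low to be tested. In single cells against larger libraries, 1 of 6 blood cell, 4 of 9 fibroblast and 3 of 8 plasma cell markers were tested. The blood cell markers summed to 0 to 1.62 CPM. Fibroblast markers summed to 53.7 to 174 CPM, with DCN, LUM and FAP at 0 and COL1A1 at 3.76 to 16.8 CPM. Plasma cell markers summed to 146 to 210 CPM, most of it XBP1. In libraries of several cells, fewer cells with a transcript and less of it in each cell cannot be told apart.

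Of the 73 histone genes, 42 had a mean over the 9 libraries of at least 10 CPM, 5 had 1 to 10 CPM, 17 were above 0 and under 1 CPM, and 9 had no count in any library. The 42 genes held 99.9% of all histone CPM, and the 5 highest held 40.6%. Per kilobase of gene model, 38 genes averaged at least 100 CPM per kb. The levels thus fell into a high and a near-silent set in every class, with few genes between.

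**Figure D1:**
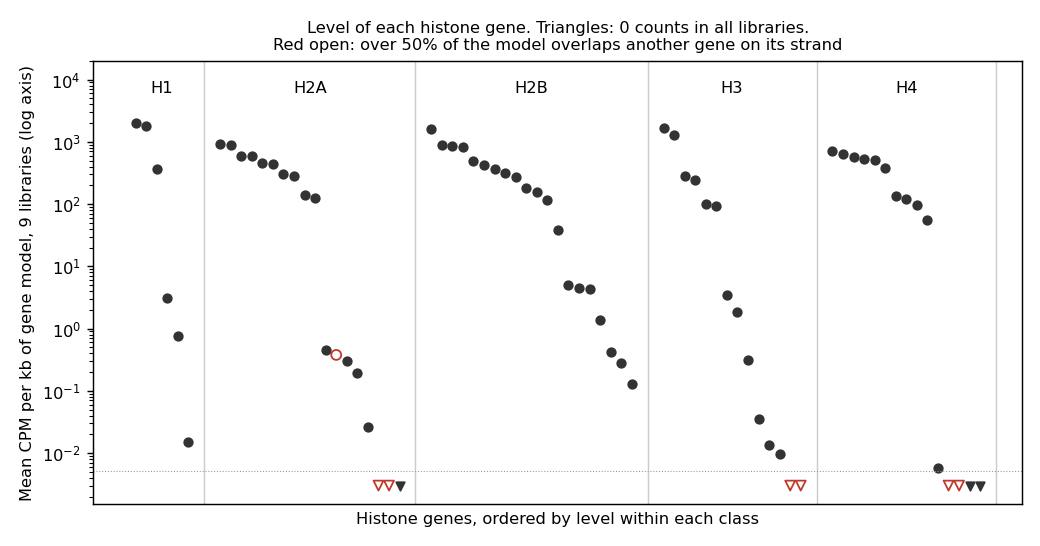
Mean CPM per kb of gene model over the 9 libraries (log axis) for each of the 73 histone genes, ordered within its class. Of the genes, 38 lie at 100 CPM per kb or above, and the triangles at the bottom mark the 9 genes with no count in any library, 6 of them with models that overlap another gene on the same strand.

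Among linker histones, HIST1H1E (H1.4) averaged 2015 and HIST1H1C (H1.2) 1772 CPM per kb, followed by HIST1H1D (H1.3) at 361. HIST1H1E measured 1354, 1859 and 2022 CPM across the 3 cells and 1362 to 1597 CPM in the 6 larger libraries (median 1504). Single Cell Rep 1 was thus just below the range of the larger libraries and the other single cells were above it. HIST1H1C was at 974, 1591 and 1520 CPM against 1074 to 1417 CPM, again with Rep 1 below the range and Rep 2 and Rep 3 above it. HIST1H1D was at 209, 316 and 277 CPM against 252 to 308 CPM, so that 1 cell lay below, 1 above and 1 inside the range.

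The leading H2A genes were HIST1H2AG (916 CPM per kb), HIST1H2AE (891), HIST1H2AM (595) and HIST1H2AH (584), which all encode canonical H2A. HIST1H2AG measured 434, 592 and 538 CPM across the 3 cells and 388 to 458 CPM in the larger libraries. HIST1H2AE was at 450, 575 and 605 CPM against 452 to 520 CPM. In both, Single Cell Rep 2 and Rep 3 lay above all larger libraries and Rep 1 did not.

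The leading H2B genes were HIST1H2BC (1623 CPM per kb), HIST1H2BF (878), HIST1H2BJ (871) and HIST1H2BI (832). HIST1H2BC measured 583, 834 and 810 CPM across the 3 cells, against 637 to 762 CPM. HIST1H2BJ was at 312, 571 and 578 CPM against 346 to 420 CPM. HIST1H2BI was at 267, 474 and 551 CPM against 314 to 347 CPM. In these 3 genes Rep 1 was the lowest of all 9 libraries and Rep 2 and Rep 3 were the highest.

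HIST1H3B led the H3 genes at 1693 CPM per kb, before HIST1H3G (1268), HIST1H3A (282) and HIST1H3D (242). HIST1H3B measured 788, 1023 and 905 CPM across the 3 cells, against 658 to 804 CPM. HIST1H3A was at 87.4, 161 and 173 CPM against 103 to 139 CPM, again with Rep 1 lowest. HIST1H3D was at 201, 218 and 246 CPM against 202 to 249 CPM, with Rep 1 just below the range and Rep 2 and Rep 3 inside it.

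The H4 genes, which all encode the same H4 protein apart from HIST1H4G, were led by HIST1H4E (708 CPM per kb), HIST1H4B (642), HIST1H4C (565) and HIST1H4I (533). HIST1H4E measured 207, 347 and 323 CPM across the 3 cells, against 227 to 273 CPM. HIST1H4C was at 180, 260 and 318 CPM against 154 to 235 CPM. HIST1H4I was at 160, 249 and 188 CPM against 168 to 219 CPM. The promoter letters printed above for HIST1H4E hold no CCAAT, and the gene was the highest of its class.

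Copies that share sequence or gene models lose reads in counting, because reads placed at several sites or in several genes were not assigned. HIST2H4A and HIST2H4B, HIST2H3A and HIST2H3C, and HIST2H2AA3 and HIST2H2AA4 had 0 counts in all 9 libraries. Each of these models spans both copies of its pair, so 100% of it overlapped its partner on the same strand and no read could be assigned to either. Their transcripts, as 50-base windows, were 96.9% to 100% shared with another gene. Their 0 therefore gives no level. HIST2H3D, the other member of the H3 trio on chromosome 1, shared 80.4% of its windows, most of them with HIST2H3DP1, and was still counted. Over 20% of windows were shared in 19 of the 73 genes, and the levels of those genes are uncertain for this reason. They include HIST1H4K (100%), HIST1H4J (85.7%), HIST1H2BK (74.1%) and HIST2H2BF (56.2%). Windows were compared among transcripts only, so matches elsewhere in the genome were not counted.

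Germ-line histone genes were low or at 0. HIST1H1T, the testis H1, reached 2.88 CPM in Single Cell Rep 1, had 0 counts in the other single cells and was at 1.09 to 3.94 CPM in the 6 larger libraries. HIST1H2AA had no count in any library. HIST1H2BA, the testis H2B, had no count in the single cells and 0 to 16 counts in the larger libraries. HIST3H3, the testis H3, had 8 counts in 100 Cell Rep 2 and 0 elsewhere. A gene with 0 counts in a single cell was given a floor of 0.0575 to 0.0588 CPM, the value of 3 counts in that library. Both reads of a fragment can be counted, so this floor is not a strict limit for counting error.

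Some low histone genes were seen in some single cells and not in others. Averaging 1 CPM or more in the larger libraries but missing from a single cell were 3 genes. They are HIST1H1T, HIST1H2BB and HIST1H3J. Set at the floor of 3 counts per library, HIST1H1T was 49.4-fold lower in Single Cell Rep 2 and 50.5-fold lower in Rep 3 than the mean of the larger libraries. Such folds depend on the floor and are not lower bounds. HIST1H2BB had 0, 5 and 307 counts in the single cells and 41 to 204 counts in the larger libraries, 39.1-fold lower in Rep 1 at this floor. HIST1H3J had 49, 0 and 153 counts against 35 to 200 counts, 31.6-fold lower in Rep 2 at this floor. No cell lacked all 3 genes. HIST1H1A (H1.1), named after its values were seen, was the reverse case, with 228 counts in Rep 2, 0 in the other single cells and 0 to 32 in the larger libraries. In all, 15 of the 73 genes had no count in any of the 3 single cells, and 52 to 54 had a count in each cell.

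Among the single cells, the summed level of all histone genes was lowest in Rep 1, at 10658 CPM, while Rep 2 reached 15319 and Rep 3 reached 15285 CPM. The larger libraries lay between 10366 CPM, in 100 Cell Rep 1, and 12341 CPM, in 1000 Cell Rep 1. Rep 1 was thus inside the range of the larger libraries, and Rep 2 and Rep 3 were above all of them. The means were 13754 ± 2681 CPM (SD, n = 3) and 11510 ± 736 CPM (SD, n = 6), a log2 ratio of 0.26 of single cells over larger libraries. Without Single Cell Rep 1 this ratio was 0.41, and without Rep 2 or Rep 3 it was 0.17. As a share of all counts, histone genes took 1.08%, 1.52% and 1.49% in the 3 cells and 1.03% to 1.25% in the larger libraries.

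In each class Rep 1 was the lowest of the 3 cells. H1 summed to 2540, 3771 and 3818 CPM in the single cells against 3055 ± 233 CPM (SD, n = 6). H2A summed to 2187, 2921 and 2759 CPM against 2212 ± 133 CPM, and H2B to 3021, 4700 and 4455 CPM against 3240 ± 164 CPM. In all 5 classes Single Cell Rep 2 and Rep 3 were above all 6 larger libraries. H3 summed to 1760, 2233 and 2219 CPM against 1723 ± 139 CPM, and H4 to 1151, 1695 and 2034 CPM against 1281 ± 116 CPM. H4 was the class in which Rep 3 stood furthest above Rep 2. As log2 ratios of the means the order was 0.14 for H1, 0.25 for H2A, 0.27 for H3, 0.33 for H2B and 0.35 for H4, and the differences between classes were not tested.

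**Figure D2:**
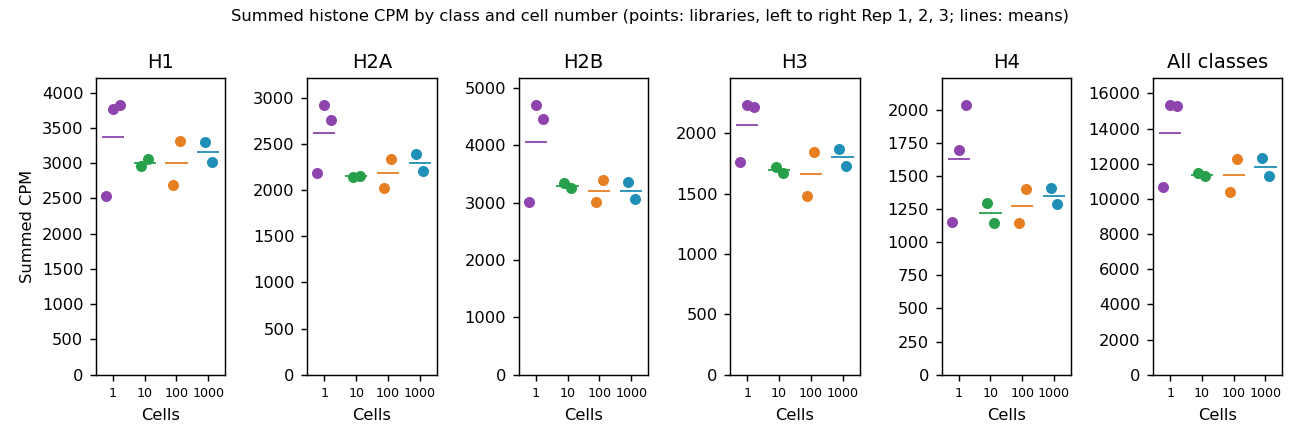
Summed CPM of each histone class and of all classes (vertical axes from 0) by number of cells, with 1 point for each library and a line at each group's mean. Single Cell Rep 1 lies near the larger libraries, while Rep 2 and Rep 3 lie above all of them, at 15319 and 15285 CPM over all classes against at most 12341 CPM.

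The makeup of the histone pool varied less than its size. H1 made up 23.8% to 27.1% of summed histone CPM over the 9 libraries, H2A 18.1% to 20.5%, H2B 27.1% to 30.7%, H3 14.3% to 16.5% and H4 10.2% to 13.3%. Single cells held the lowest H1 share (Rep 1) and the highest H4 share (Rep 3). These are shares of CPM and not per length, so they do not give the number of mRNAs of each class.

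Gene by gene, the 42 histone genes of at least 10 CPM were set against the range of the 6 larger libraries. In Single Cell Rep 1, 9 of the 42 lay above all 6 and 19 below all 6, where 36.1% and 36.1% of all 9875 genes of at least 10 CPM did so. In Rep 2, 35 of the 42 lay above and 0 below, against 34.7% and 35.3% of all genes. In Rep 3, 31 lay above and 1 below, against 37.7% and 38.1%. The cells thus differed from one another in direction, with Rep 2 and Rep 3 above the larger libraries in most histone genes and Rep 1 more often below. Above the larger libraries in all 3 cells were 7 of the 42 genes, against 6.18% of all genes, and 0 were below in all 3, against 7.2%.

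By class, Rep 1 had a median ratio to the mean of the larger libraries of 0.770 over 3 H1 genes, 1.02 over 10 H2A genes, 0.889 over 13 H2B genes, 0.977 over 6 H3 genes and 0.862 over 10 H4 genes. In Rep 2 the medians ran from 1.24 for H1 to 1.48 for H2B, and 12 of the 13 H2B genes lay above all larger libraries. In Rep 3 they ran from 1.15 for H2A to 1.76 for H4, and 9 of the 10 H4 genes lay above all larger libraries. Set directly against each other, Rep 3 was higher than Rep 2 in 7 of 10 H4 genes and in 4 of 10 H2A genes. Over all 42 histone genes it was higher in 22 (52.4%), and over all 9875 genes in 50.3%.

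**Figure D3:**
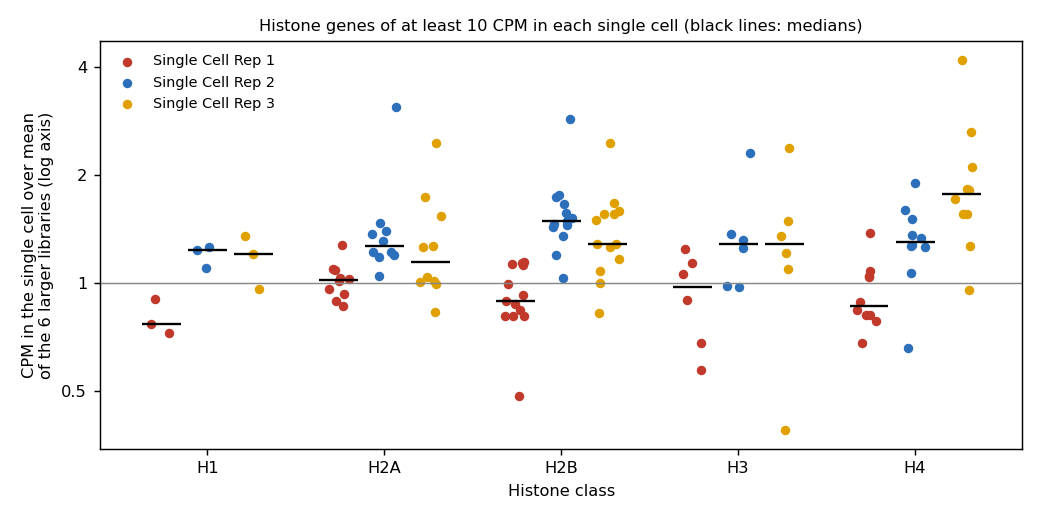
CPM in each single cell divided by the mean of the 6 larger libraries (log axis) for the 42 histone genes of at least 10 CPM, by class, with 1 point for each gene and black lines at the medians. Rep 2 and Rep 3 lie mostly above 1 and Rep 1 around or below it, and the highest point is HIST4H4 in Rep 3 at 4.19.

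The histone genes described next were picked by the 3 highest and 3 lowest ratios of 1 single cell to the larger libraries. Standing out in 1 cell is thus part of how they were picked. Other genes were high in more than 1 cell, such as HIST2H3D at 2.30 times the mean in Rep 2 and 2.38 times in Rep 3. HIST4H4, the H4 gene that lies alone on chromosome 12, measured 23.6, 11.3 and 71.8 CPM across the 3 cells and 8.62 to 21.9 CPM in the larger libraries, 4.19 times their mean in Rep 3. Its log2 fold change over the 3 cells was 1.05 (SE 0.45) and was not called by edgeR (adjusted p = 0.176). HIST3H2A and HIST3H2BB, which encode an H2A and an H2B and share the promoter printed above, were both high in Rep 2. HIST3H2A was at 56.4, 172 and 55.9 CPM against 50.1 to 61.9 CPM, 3.10 times the mean in Rep 2. HIST3H2BB was at 22.4, 133 and 38.2 CPM against 37.0 to 53.7 CPM, 2.86 times the mean in Rep 2 and 0.483 times in Rep 1. Both lay inside the range of the larger libraries in Rep 3. HIST1H3H, an H3 gene, had the lowest ratio of a single cell, at 30.7, 52.6 and 20.8 CPM against 44.4 to 60.4 CPM, 0.388 times the mean in Rep 3 and 0.573 times in Rep 1.

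**Figure D4:**
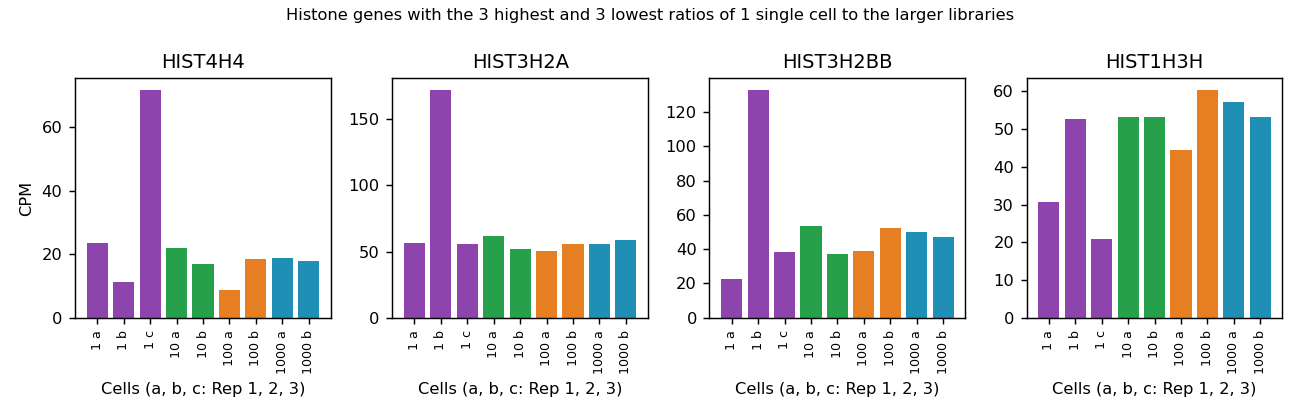
CPM (vertical axes from 0) of HIST4H4, HIST3H2A, HIST3H2BB and HIST1H3H in each of the 9 libraries, coloured by number of cells. HIST4H4 is highest in Single Cell Rep 3 at 71.8 CPM, and the HIST3H2A and HIST3H2BB neighbours are both highest in Rep 2 at 172 and 133 CPM.

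Of the 13 opposite-strand pairs, 9 had both genes at 10 CPM or more. HIST1H2BF is counted among the 13 with both HIST1H3D and HIST1H2AD, which start at the same base. Both genes of a pair were above the mean of the larger libraries in 8 of the 9 pairs in Rep 2, in 6 in Rep 3 and in 1 in Rep 1. In Rep 1 both were below it in 1 pair and the partners lay on opposite sides in the others. Of the 42 histone genes of at least 10 CPM, paired or not, 35 in Rep 2, 31 in Rep 3 and 9 in Rep 1 lay above all 6 larger libraries. This rule is stricter than lying above the mean, so the counts of genes and of pairs are not directly comparable. The pair counts alone do not show that partners move together, which was not tested. The pair HIST1H2BK and HIST1H2AH, 223 bases apart, was above the mean in all 3 cells, at 1.13, 1.45 and 1.55 times for the H2B gene and 1.09, 1.31 and 1.74 times for the H2A gene. HIST1H2AK was at 2.45 times the mean in Rep 3 while its partner HIST1H2BN was at 1.28 times, so partners did not always move by the same amount.

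The spread among single cells was larger than among the larger libraries. The coefficient of variation of the 42 genes had a median of 23.0% over the 3 single cells (range 8.22% to 92.6%, the highest in HIST3H2BB) and of 8.07% over the 6 larger libraries. Over all genes of at least 10 CPM the medians were 27.4% and 8.97%.

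In the comparison of the 3 single cells with the 6 larger libraries, 54 of the 73 histone genes passed the filter on low counts, and edgeR's quasi-likelihood test called 7 higher and 1 lower at a Benjamini-Hochberg adjusted p under 0.05 over 15603 genes. Of all genes tested, 2.22% were called higher and 4.45% lower. At an unadjusted p under 0.05, 23 of the 54 passed, against 24.5% of all genes. The median log2 fold change was 0.26 over the histone genes tested and 0.01 over all genes. Among the genes of at least 10 CPM it was 0.30 over the 42 histone genes and 0.02 over all genes, and 37 of the 42 were above 0.

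The genes called higher were 3 of H2B, 2 of H2A and 2 of H3. HIST1H2BF, the H2B gene printed above with an octamer, measured 371, 543 and 519 CPM across the 3 cells and 303 to 371 CPM in the larger libraries, with Rep 1 inside that range. Its log2 fold change was 0.54 (SE 0.11, adjusted p = 0.0247 by edgeR). HIST1H2BG was at 163, 208 and 223 CPM against 128 to 159 CPM, a log2 fold change of 0.47 (SE 0.11, edgeR adjusted p = 0.0283). For HIST1H2BG all 3 cells lay above all larger libraries. HIST1H2BK was at 419, 539 and 578 CPM against 331 to 400 CPM, a log2 fold change of 0.46 (SE 0.10, edgeR adjusted p = 0.0274), with the caveat on shared windows given above.

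The H2A genes called were HIST1H2AH and HIST1H2AK. HIST1H2AH was at 272, 326 and 434 CPM against 231 to 262 CPM, a log2 fold change of 0.46 (SE 0.12, edgeR adjusted p = 0.0388). HIST1H2AK was at 60.3, 57.5 and 115 CPM against 44.6 to 49.8 CPM, a log2 fold change of 0.72 (SE 0.19, edgeR adjusted p = 0.0463). In both genes every single cell was above every larger library, and Rep 3 was the highest.

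The H3 genes called were HIST1H3G and HIST2H3D. HIST1H3G was at 611, 704 and 796 CPM against 440 to 591 CPM, a log2 fold change of 0.39 (SE 0.10, edgeR adjusted p = 0.0423). HIST2H3D was at 39.7, 73.3 and 75.8 CPM against 22.3 to 38.5 CPM, a log2 fold change of 0.98 (SE 0.22, edgeR adjusted p = 0.0289). Neither gene overlapped between single cells and larger libraries, and for HIST2H3D the distance of Rep 1 from the highest larger library was small.

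HIST1H2AD was the gene called lower, with 0 counts in each single cell and 7 to 18 counts in each larger library (edgeR adjusted p = 0.0292). Set at a floor of 3 counts over the 3 cells together it was 14.9-fold lower, a value that depends on the floor. Of its model, 85.3% overlapped HIST1H3D on the same strand, where reads were not assigned, so its counts come from the small remainder. HIST1H3D, of whose model 47.2% was lost in the same way, had a log2 fold change of -0.02 (SE 0.09, edgeR adjusted p = 0.924).

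No H1 or H4 gene was called. Over the 10 H4 genes of at least 10 CPM the log2 fold changes ran from 0.02 (HIST1H4I) to 1.05 (HIST4H4) with a median of 0.50, and all 10 were above 0. HIST1H4B, at 214, 307 and 317 CPM against 174 to 232 CPM, had a log2 fold change of 0.45 (SE 0.13, edgeR adjusted p = 0.0598). The medians of the other classes were 0.11 for 3 H1 genes, 0.26 for 10 H2A genes, 0.38 for 13 H2B genes and 0.20 for 6 H3 genes. The lowest value was that of HIST1H3H, -0.63 (SE 0.24, edgeR adjusted p = 0.132).

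**Figure D5:**
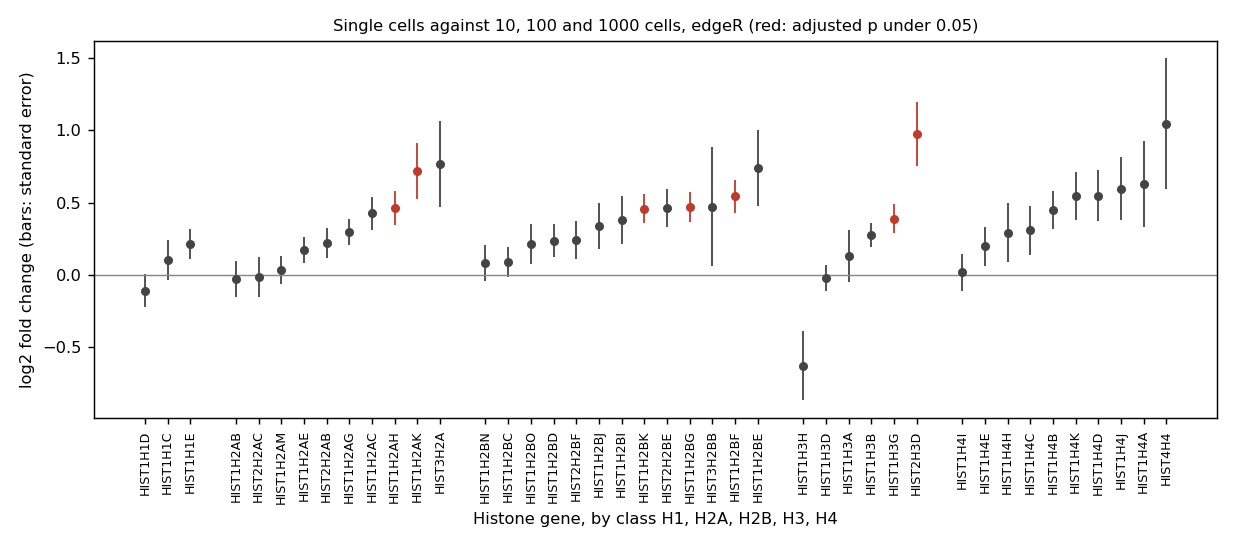
log2 fold change of the single cells over the 6 larger libraries for the 42 histone genes of at least 10 CPM, ordered within each class. Bars are 1 standard error, computed from edgeR's fold change and F value. The 7 genes in red passed an adjusted p under 0.05, and 37 of the 42 points lie above 0.

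The number of calls depended on single libraries. Without Single Cell Rep 1, 27 histone genes were called higher and 2 lower, against 6.96% and 10.9% of all genes. Without 100 Cell Rep 2, 1000 Cell Rep 1 or 1000 Cell Rep 2, no gene at all was called by edgeR, and the smallest adjusted p of a histone gene was 0.0655, 0.0674 and 0.0672. Without 10 Cell Rep 1, 10 Cell Rep 2 or 100 Cell Rep 1, 3, 2 and 2 histone genes were called higher, against 1.4%, 1.35% and 1.26% of all genes. DESeq2 called 15 higher and 2 lower, against 6.8% and 9.83% of all genes. An edgeR fit with a separate mean for each of the 4 cell numbers, the larger ones then averaged, called none. As in the main fit, each gene had a single spread over all libraries.

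Against 1000 cells alone, edgeR called 0 of 54 histone genes higher or lower, as it did for all genes (0%). At an unadjusted p under 0.05, 6 of 54 passed, against 7.91% of all genes. DESeq2 called none of the 54, against 0.208% of all genes higher and 0.052% lower. The median log2 fold change over the histone genes was 0.27, against 0.02 over all genes.

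Between the larger inputs, the summed histone level was 11464 and 11283 CPM in 10 cells, 10366 and 12295 CPM in 100 cells and 12341 and 11312 CPM in 1000 cells. The groups overlapped, and the pair of 100 Cell libraries spanned nearly the whole range. For 10 against 1000 cells edgeR called 0 of 52 histone genes (0% of all genes), and 10 passed an unadjusted p under 0.05 against 11.2% of all genes. DESeq2 called 1 higher and 1 lower, against 0.608% and 0.66% of all genes. For 100 against 1000 cells edgeR and DESeq2 called 0 of 52 histone genes. Of all genes, edgeR called 0%, and DESeq2 0.00641% higher and 0% lower. By edgeR, 0 of the 52 passed an unadjusted p under 0.05, against 2.01% of all genes. The median log2 fold changes were -0.05 and -0.05.

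The machinery that makes and degrades histone mRNA was measured in 40 genes, of which 39 were tested in single cells against larger libraries, 1 higher and 1 lower, against the 2.22% and 4.45% of all genes given above. SLBP, the stem-loop binding protein, measured 187, 210 and 120 CPM across the 3 cells, against 184 to 204 CPM in the larger libraries, a log2 fold change of -0.17 (SE 0.14, edgeR adjusted p = 0.531). NPAT, the activator of histone transcription, was at 78.8, 65.7 and 53.4 CPM against 53.1 to 62.8 CPM, 0.20 on the log2 scale (SE 0.13, edgeR adjusted p = 0.399). SLBP was thus lowest in Rep 3 and NPAT highest in Rep 1, while Rep 1 had the lowest histone level of the single cells. These are RNA levels, and a link between either gene and the histone level was not tested. RNU7-1 was nearly uncounted, at 0 to 0.17 CPM, and was not tested.

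ZNF473 (ZFP100), a zinc finger protein of the U7 particle that cuts histone pre-mRNA, rose from 21.0 to 25.4 CPM in the larger libraries to 28.1, 45.2 and 91.6 CPM in the single cells. Its log2 fold change was 1.25 (SE 0.28, edgeR adjusted p = 0.0274), and no single cell overlapped the larger libraries. DDX19B, an RNA helicase of mRNA export, was the gene called lower, at 0.0193, 0 and 0 CPM against 0.213 to 1.20 CPM (edgeR adjusted p = 0.0342). The summed level of the 40 genes was 3859, 4117 and 3859 CPM in the single cells and 3888 to 4051 CPM in the larger libraries.

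Histone chaperones, which carry histones to DNA, did not rise with the histone genes. Of 21 tested, 0 were called higher and 3 lower, against 2.22% and 4.45% of all genes. They summed to 4962, 5522 and 5155 CPM in the single cells against 5889 to 5994 CPM, below every larger library in each cell. NASP, which keeps a reserve of H3 and H4, was at 623, 630 and 591 CPM against 769 to 856 CPM, a log2 fold change of -0.40 (SE 0.06, edgeR adjusted p = 0.0131). NAP1L1, a chaperone of H2A and H2B, was at 654, 753 and 665 CPM against 803 to 914 CPM, and ATRX, a remodeller that deposits histone H3.3, was at 327, 363 and 278 CPM against 408 to 442 CPM. Their log2 fold changes were -0.35 (SE 0.07, edgeR adjusted p = 0.0214) and -0.40 (SE 0.08, edgeR adjusted p = 0.0247).

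Beside the histone levels of each cell, genes of S phase and of G2/M phase were summed. The 32 S phase genes summed to 5566, 6669 and 5799 CPM in the single cells against 5997 to 6575 CPM, so that Rep 2 lay above the larger libraries and Rep 1 and Rep 3 below. None of the 32 was called. The 35 G2/M genes summed to 8460, 8780 and 12029 CPM against 9697 to 11008 CPM, so that Rep 3 lay above and Rep 1 and Rep 2 below. Rep 2 and Rep 3 had nearly equal histone levels with opposite positions in these sums, and the part of the cell cycle in the histone result was not tested.

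Of the 35 G2/M genes, 2 were called lower and 0 higher, a share of lower calls near the 4.45% of all genes. AURKA, a mitotic kinase, was at 50.6, 54.1 and 83.1 CPM against 83.9 to 114 CPM, a log2 fold change of -0.72 (SE 0.16, edgeR adjusted p = 0.0274). CCNB1, the mitotic cyclin B1, was at 157, 190 and 247 CPM against 243 to 299 CPM, a log2 fold change of -0.51 (SE 0.13, edgeR adjusted p = 0.0372). In both genes Rep 3 was the highest of the single cells.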

How the data were processed

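RNA of sorted HAP1 cells was sequenced in 9 libraries. Per the labels and the study's methods, the authors used FastQC 0.11.9 for quality checks, Trim Galore 0.6.7 for trimming, HISAT2 2.2.1 for alignment (hg38), SAMtools 1.16.1 for sorting and featureCounts (Subread 2.0.6) for read counts per gene. The deposited values are raw read counts of 26485 gene models, whose annotation release is not given in the sources used here. Single reads rather than pairs were counted on the sense strand, and reads that mapped to several places or several genes were left out, which lowers near-identical histone copies. There are no molecular identifiers and both reads of a fragment can be counted, so the counting floors do not fully cover counting error. 

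From these counts, CPM was computed with TMM sizes over the 16184 genes that filterByExpr kept, using edgeR 4.0.16 (with limma 3.58.1, DESeq2 1.42.0 and R 4.3.3). Each comparison was tested by edgeR's quasi-likelihood method (prior count 2 for fold changes, Benjamini-Hochberg adjusted p under 0.05) on the libraries of each comparison, fitted on all genes. Standard errors are the absolute log2 fold change divided by the square root of the test's F value, since the test gives none. The scripts were tested on simulated data. The labels call the samples biological replicates but do not say that they came from separate cultures, so p-values measure the spread between these samples.

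The histone genes and the gene lists were chosen with earlier results of these data known. Named with values were the genes called in any comparison, the 4 highest per kb in each class, those of at least 1 CPM in the larger libraries with 0 counts in a single cell, those with the 3 highest and 3 lowest ratios of 1 single cell to the larger libraries, germ-line and duplicate genes, and, of the lists, the called genes with SLBP, NPAT and RNU7-1. Deviations of samples with the same replicate number were barely correlated (-0.0531 to 0.0236), and no library was a duplicate. With so few libraries per group this cannot show whether samples of the same number were prepared together. Alternatives were RLE scaling, DESeq2, other filters, other prior counts, the replicate block, plain totals, values per kb and leaving out each library. In another, all libraries were fitted together with a separate mean for each cell number and a common spread. Protein sequences were not used here.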

Additional observations from a re-analysis of the deposited data

How the results depend on the processing

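Every alternative kept the summed histone log2 ratio above 0, at 0.27 with RLE scaling, 0.24 with plain totals, 0.27 per kb and 0.17 to 0.41 when 1 library was left out. The count of called genes was less stable. For single cells against the larger libraries, DESeq2 gave 15 higher and 2 lower of 54 histone genes, against 6.8% and 9.83% of all genes. Leaving out the filter gave 5 and 0 of 64, against 1.2% and 2.11%. A filter of 10 CPM in 2 libraries gave 7 and 0 of 42, against 2.99% and 2.53%. A separate mean for each cell number gave 0 and 0 of 57, against 0% and 0%. The replicate block, whose numbers showed no sign of pairing the samples, gave 3 and 2 of 54, against 5.06% and 8.25%. With the block HIST1H1C, HIST1H3A and HIST4H4 turned to log2 fold changes of -0.0041, -0.082 and -0.0074. Leaving out 1 library gave 0 to 27 higher and 0 to 2 lower, against 0% to 8.48% and 0% to 11.3% of all genes. In these the sign turned for 9 named genes. HIST1H1C ran from -0.021 to 0.29, HIST1H1D from -0.24 to 0.039, HIST1H2AM from -0.11 to 0.14, HIST1H3A from -0.046 to 0.38, HIST1H3D from -0.098 to 0.045, HIST1H4I from -0.17 to 0.15, HIST1H2BB from -4.71 to 0.39, HIST1H3J from -1.89 to 0.059 and HIST3H2BB from -0.62 (without Single Cell Rep 2) to 0.88. No gene was called with its sign turned. Of the 17 alternatives for each gene called higher, the call held in 13 for HIST1H2BF, 12 for HIST1H2BK, 11 for HIST2H3D, 10 for HIST1H2BG, 8 for HIST1H2AH, and 7 each for HIST1H2AK and HIST1H3G, with adjusted p up to 0.141, and for HIST1H2AD in 11 of 16. The fold changes of these 7 kept their sign in all alternatives. The alternatives include fits with other prior counts. Such fits change the fold change and not the p-value, so the call was bound to hold there.

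For 10 against 1000 cells, DESeq2 gave 1 higher and 1 lower and leaving out the filter gave 1 lower, and leaving out 1 library gave 0 to 6 higher and 0 to 15 lower, the most without a 10 Cell library, where 12.6% to 13.5% of all genes were called higher and 13.1% to 15.9% lower. For 100 against 1000 cells, omitting the filter and the replicate block gave 1 lower each, and leaving out 1 library gave 0 to 1 higher and 0 to 28 lower, the most without 100 Cell Rep 2, where 14.5% of all genes were called higher and 16% lower. This is a setting that leaves 1 library in that group and assumes that it varies like the others. The causes were not tested. With 3 single cells, differences between cells cannot be told from differences between their libraries.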
